A study of Mus musculus with 24 samples.

Results

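Matrix metalloproteinases (MMPs), the related ADAM and ADAMTS proteases, and the tissue inhibitors of metalloproteinases (TIMPs) were examined in endothelial cells sorted from 2 mouse models of medulloblastoma and from normal hindbrain. The members were all genes whose symbol in the platform annotation is Mmp, Adam, Adamts or Timp followed by a number, counted from probe sets with exactly 1 symbol and each represented by the probe set of highest mean over the 24 arrays. They were 77 of 22180 genes, measured by 83 probe sets: 22 MMPs, 33 ADAMs, 18 ADAMTSs and 4 TIMPs. Mmp15 and Adamts2 were not analysed here, and 1 probe set annotated to Mmp24 and a second gene and 2 annotated to Adam34 and a second gene were left out.

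Expression was measured on Affymetrix arrays, 8 for each group, all from mice of mixed strain background and titled as biological replicates, so p-values measure the spread between those arrays. Wnt medulloblastomas came from mice with Blbp-Cre, which drives recombination in glial and progenitor cells of the developing brain, joined to the alleles Ctnnb1 +/Exon3 flox, Trp53 flox/flox and Pik3ca +/flox. Shh medulloblastomas came from mice that were Ptch+/- and Ink4c-/- throughout the body, endothelium included. Hindbrains were from wild type adults, and the ages of the mice were not given in the sources used here. After papain dissociation, cells carrying Cd105 or Cd144, surface proteins of endothelium, were taken with magnetic beads, and the comparison asks how vessel cells differ between each tumour and normal tissue.

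The mean over 12 endothelial markers was 10.71 ± 0.47 in Wnt arrays, 11.64 ± 0.20 in Shh arrays and 11.80 ± 0.11 in hindbrain arrays (log2 signal, SD, n = 8 each), and all 12 lay above the control level (the 95th percentile of ERCC control probe sets) in each group. All 12 fell in Wnt arrays against hindbrain arrays, and 2 fell in Shh arrays. Markers of other cells were present too. The mean over 10 fibroblast markers ran from 8.95 to 10.21 in Wnt arrays, 8.79 to 9.93 in Shh arrays and 7.65 to 8.29 in hindbrain arrays. Of these 10, 8 rose and 1 fell in each tumour, and 4 were higher and 3 lower in Wnt than in Shh arrays. The mean over 13 microglia and macrophage markers ran from 7.78 to 9.58 in Wnt arrays, 7.95 to 10.44 in Shh arrays and 10.09 to 11.03 in hindbrain arrays, with 11 falling in Wnt arrays and 10 falling in Shh arrays, where 1, Lyz2, rose. Of 10 pericyte markers, 6 fell in Wnt arrays, and 1 rose and 1 fell in Shh arrays, with means from 8.12 to 9.96 in Wnt arrays, 10.08 to 10.59 in Shh arrays and 9.70 to 10.81 in hindbrain arrays. Of 6 smooth muscle markers, 1 rose and 3 fell in Wnt arrays and all 6 fell in Shh arrays, with means from 8.07 to 8.64 in Wnt arrays, 7.01 to 7.66 in Shh arrays and 8.49 to 9.30 in hindbrain arrays. The part that such cells had in the results below was not tested, and in these bulk samples a change in the share of a cell type and a change in its RNA per cell cannot be told apart. Array medians lay between 5.96 and 6.18, and precision is limited by having 8 arrays a group.

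MMPs are zinc-dependent enzymes that are made as inactive precursors and cut collagens, gelatins, laminins and other proteins of the extracellular matrix, either secreted or held at the cell surface. ADAMs are transmembrane relatives that release growth factors, cytokines and receptors from cell surfaces, while ADAMTSs are secreted and cut proteoglycans, procollagens and von Willebrand factor. TIMPs block the active site of these enzymes, and in brain the balance between protease and inhibitor is known for its bearing on the vascular basement membrane and the blood-brain barrier.

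Of the 77 genes, 10 MMPs lie side by side on chromosome 9 with at most 1 other protein-coding gene between neighbours, in the order Mmp13, Mmp12, Mmp1b, Mmp3, Mmp1a, Mmp10, Mmp8, Mmp27, Mmp20 and Mmp7. Both strands of the 250 bases before the RefSeq start sites (build GRCm38.p6) were searched for the letters TGANTCA. These letters, with N for any base, are a loose form of the site bound by AP-1 factors. They were found in 8 of these 10 genes, in 4 of the 37 other members that had a window (Adam19, Adam20, Adam25 and Adam29) and in 7.82% of 27025 genes. The last 100 bases before the start are shown for those 8 because several genes of this cluster rose in Shh arrays, with the motif in capitals, 5′ to 3′ on the strand of the gene.
Mmp13, chr9:7272414-7272513, plus strand: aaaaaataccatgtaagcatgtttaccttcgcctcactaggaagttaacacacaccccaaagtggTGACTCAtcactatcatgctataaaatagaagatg
Mmp12, chr9:7347274-7347373, plus strand: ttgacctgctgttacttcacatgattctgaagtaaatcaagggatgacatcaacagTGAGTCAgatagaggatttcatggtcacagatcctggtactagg
Mmp1b, chr9:7388027-7388126, minus strand: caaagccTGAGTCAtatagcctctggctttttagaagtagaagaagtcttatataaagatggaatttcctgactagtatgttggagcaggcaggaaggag
Mmp3, chr9:7445722-7445821, plus strand: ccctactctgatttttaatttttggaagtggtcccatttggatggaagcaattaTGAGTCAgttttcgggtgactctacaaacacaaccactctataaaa
Mmp1a, chr9:7464041-7464140, plus strand: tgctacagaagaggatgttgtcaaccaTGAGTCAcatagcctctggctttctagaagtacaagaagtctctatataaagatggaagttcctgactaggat
Mmp10, chr9:7502242-7502341, plus strand: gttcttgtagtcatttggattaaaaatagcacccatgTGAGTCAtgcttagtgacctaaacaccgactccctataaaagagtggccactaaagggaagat
Mmp20, chr9:7628131-7628230, plus strand: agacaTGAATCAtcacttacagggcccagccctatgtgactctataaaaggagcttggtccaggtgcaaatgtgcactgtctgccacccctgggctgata
Mmp7, chr9:7691990-7692089, plus strand: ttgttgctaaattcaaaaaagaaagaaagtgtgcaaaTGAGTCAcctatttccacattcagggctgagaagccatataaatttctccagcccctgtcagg
The first base of the motif lay between 35 and 95 bases before the start in these windows. N was A in Mmp20, and in Adam20 and Adam25 outside the cluster, and C or G in the other members with a match. Mmp12 and Mmp7 each have a second RefSeq start whose printed length holds no such letters. The letters CTTTGAT, bound by TCF and LEF factors, were found in 1 of the 47 members with a window (2.13%), against 3.72% of all genes. A match describes the sequence alone.

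The 92 control probe sets for ERCC sequences, foreign to the mouse genome, had a 95th percentile of 5.24 on the log2 scale, used here as the control level. Over all genes, 17010 of 22180 had a mean above it in at least 1 group. Of the 77 genes, 55 did so, and 45 did so in all groups. The 22 that did not were 19 ADAMs, among them Adam2, Adam7 and Adam24, which are known from testis and epididymis, together with the collagenases Mmp1a and Mmp1b and the enamel protease Mmp20. All ADAMTSs and TIMPs were above background somewhere. The arrays thus gave signal for 19 of 22 MMPs, 14 of 33 ADAMs, 18 of 18 ADAMTSs and 4 of 4 TIMPs.

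In Wnt arrays 23 of the 77 genes rose against hindbrain (29.9%), beside 23.2% of all 22180 genes, and 16 fell (20.8%), beside 22% of all genes (limma, adjusted p under 0.05). In Shh arrays 32 rose (41.6%), beside 18.9% of all genes, and 7 fell (9.09%), beside 18.9%. The comparisons use the same hindbrain arrays and are therefore given side by side without a measure of their agreement. The counts of changes of at least 2-fold were 16 higher (20.8%, background 6.79%) and 6 lower (7.79%, background 5.29%) in Wnt arrays, and 21 higher (27.3%, background 4.14%) and 1 lower (1.3%, background 2.86%) in Shh arrays. All arrays of a tumour lay above all hindbrain arrays for 18 genes in Wnt arrays (23.4%, background 10.6%) and 18 in Shh arrays (23.4%, background 7.13%), and below them for 8 in Wnt arrays (10.4%, background 9.42%) and 4 in Shh arrays (5.19%, background 5.55%). The share of falling genes in Wnt arrays was thus near the background, and the share of genes at least 2-fold higher was above it in both tumours. Of all genes called for Wnt minus hindbrain, 51.3% were higher, and 59.9% were when arrays were shifted to the same median. For Shh minus hindbrain these shares were 50.1% and 49.2%. With the endothelial marker mean as a covariate, 16 members rose in Wnt arrays (20.8%), beside 10% of all genes, and 6 fell (7.79%), beside 8.74%, so the falling calls dropped over all genes as well. In Shh arrays 32 rose and 7 fell under that covariate, beside 18.5% and 17.9% of all genes.

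Set directly against each other, 12 of the 77 genes were higher in Wnt arrays than in Shh arrays (15.6%, background 18%) and 23 were lower (29.9%, background 17.8%). Changes of at least 2-fold numbered 7 higher (9.09%, background 4.68%) and 12 lower (15.6%, background 3.49%), and arrays did not overlap for 5 higher (6.49%, background 5.8%) and 8 lower (10.4%, background 4.32%). Of all genes called in that comparison, 50.3% were higher in Wnt arrays, and 62.2% were when arrays were shifted to the same median, under which 15 members were higher and 22 lower. These counts were 6 higher (7.79%, background 8.75%) and 12 lower (15.6%, background 8.12%) in Wnt arrays with the endothelial covariate, under which calls over all genes were also fewer. Over the members, the median log2 difference was 0.02 for Wnt minus hindbrain (-0.02 over all genes), 0.22 for Shh minus hindbrain (-0.02 over all genes) and -0.07 for Wnt minus Shh (-0.0019 over all genes). By family, the median for Shh minus hindbrain was 0.82 for MMPs, 0.02 for ADAMs, 0.53 for ADAMTSs and 0.88 for TIMPs, and that for Wnt minus hindbrain was -0.02 for MMPs, -0.03 for ADAMs, 0.48 for ADAMTSs and 0.50 for TIMPs.

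**Figure D1:**
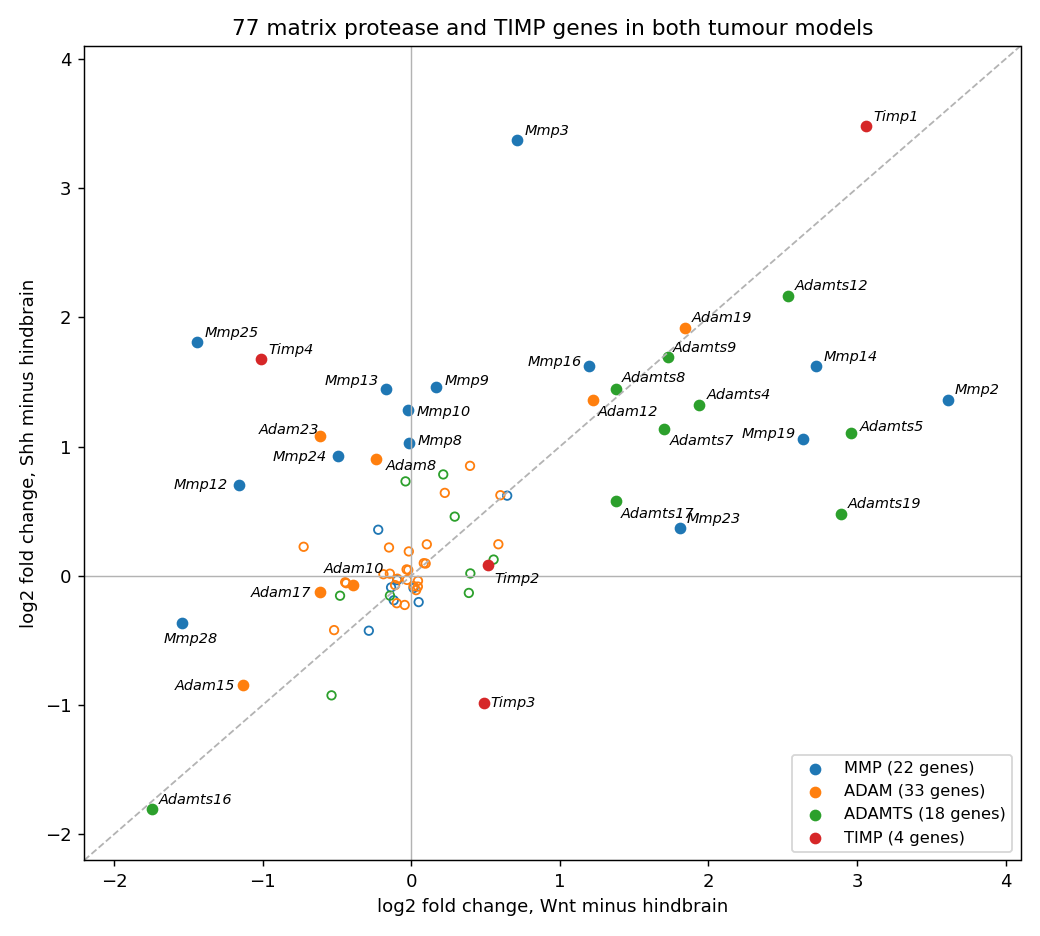
Each point is 1 of the 77 genes, with its log2 fold change for Wnt minus hindbrain on the horizontal axis and for Shh minus hindbrain on the vertical axis, coloured by family, filled and named where values are given in full and open otherwise; both axes use the same 8 hindbrain arrays, and the dashed line marks equal change. Timp1 lies far out on both axes (3.06 and 3.48), Mmp2 farthest to the right (3.61), and Mmp3 high on the Shh axis alone (3.37).

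Gelatinases, which cut denatured collagen and the type IV collagen of basement membranes, differed between the tumours. Mmp2, or gelatinase A, ran from 11.22 to 12.70 in Wnt arrays (median 12.03), 8.72 to 10.43 in Shh arrays (median 10.11) and 7.97 to 8.92 in hindbrain arrays (median 8.40). All Wnt arrays stood above the Shh and hindbrain arrays, which overlapped. Its log2 difference was 3.61 ± 0.25 for Wnt minus hindbrain, a 12.2-fold rise (adjusted p = 1.03e-11), 1.36 ± 0.25 for Shh minus hindbrain (adjusted p = 9.74e-05) and 2.25 ± 0.25 for Wnt minus Shh (adjusted p = 7.63e-08). Mmp9, or gelatinase B, which neutrophils and macrophages store or secrete, had a median of 6.45 in Wnt arrays (5.94 to 8.68), 7.92 in Shh arrays (6.82 to 9.36) and 6.60 in hindbrain arrays (6.16 to 6.83). The Shh arrays reached highest, with Shh 8 at the top and Shh 5 at the bottom, and all 3 groups overlapped. It was 2.76-fold higher in Shh arrays than in hindbrain arrays (1.46 ± 0.35, adjusted p = 0.00189) and 2.46-fold lower in Wnt arrays than in Shh arrays (-1.30 ± 0.35, adjusted p = 0.00508). The difference of Mmp9 for Wnt minus hindbrain was 0.17 ± 0.35 (adjusted p = 0.746), and 1 array, Wnt 2, stood at 8.68 against 7.07 or less in the other Wnt arrays. Under the endothelial covariate the Wnt minus Shh difference of Mmp9 was -1.07 and not called (adjusted p = 0.241).

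Membrane-type MMPs sit on the cell surface, and 5 of them were measured. In Wnt arrays 2 rose and 3 fell (background 23.2% and 22%), and in Shh arrays 4 rose and 1 fell (background 18.9% each). Mmp14, the collagen-cutting enzyme that also activates the precursor of Mmp2, ran from 10.81 to 11.66 in Wnt arrays (median 11.28), 9.18 to 11.11 in Shh arrays (median 10.08) and 8.14 to 8.66 in hindbrain arrays (median 8.50). Both tumours lay wholly above hindbrain and overlapped each other. Its log2 difference was 2.72 ± 0.21 for Wnt minus hindbrain (adjusted p = 6.36e-11), 1.62 ± 0.21 for Shh minus hindbrain (adjusted p = 9.29e-07) and 1.10 ± 0.21 for Wnt minus Shh (adjusted p = 0.000129). Mmp16, a relative that also activates the precursor of Mmp2, had a median of 6.74 in Wnt arrays (5.85 to 7.27), 7.09 in Shh arrays (6.08 to 7.89) and 5.40 in hindbrain arrays (5.02 to 5.70). It too lay above hindbrain in all arrays of both tumours, by 2.29-fold in Wnt arrays (adjusted p = 7.58e-05) and 3.08-fold in Shh arrays (adjusted p = 2.88e-06). Its Wnt minus Shh difference was not called, but was with the endothelial covariate (-1.28, adjusted p = 0.00529) and without Shh 3 (-0.56, adjusted p = 0.0426). Mmp17, which is held by a lipid anchor, was lower in both, by -0.28 ± 0.093 (adjusted p = 0.0138) in Wnt arrays and -0.42 ± 0.093 (adjusted p = 0.000762) in Shh arrays on the log2 scale.

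The other membrane-type enzymes moved in opposite directions in the tumours. Mmp25, a lipid-anchored enzyme described in human leukocytes, ran from 5.93 to 7.36 in Wnt arrays (median 6.39), 9.37 to 10.09 in Shh arrays (median 9.77) and 7.63 to 8.29 in hindbrain arrays (median 7.97). The groups did not overlap, with Shh arrays at the top, hindbrain arrays between and Wnt arrays at the bottom. Mmp25 was 2.71-fold lower in Wnt arrays than in hindbrain arrays (-1.44 ± 0.17, adjusted p = 1.45e-07), 3.5-fold higher in Shh arrays than in hindbrain arrays (1.81 ± 0.17, adjusted p = 1.25e-08) and 9.49-fold lower in Wnt arrays than in Shh arrays (-3.25 ± 0.17, adjusted p = 2.58e-13). The Shh arrays differed little among themselves, with an SD of 0.25. Neutrophil markers, whose values are given with the clustered genes, were higher in some Shh arrays, and their part in the Mmp25 result was not tested. Mmp24, known from neurons, had a median of 6.65 in Wnt arrays (6.26 to 6.88), 8.14 in Shh arrays (6.95 to 8.62) and 7.04 in hindbrain arrays (6.71 to 7.48). The Wnt arrays were all below the Shh arrays, and hindbrain overlapped both. Its difference was -0.49 ± 0.17 for Wnt minus hindbrain (adjusted p = 0.0224), 0.93 ± 0.17 for Shh minus hindbrain (adjusted p = 0.000149) and -1.42 ± 0.17 for Wnt minus Shh (adjusted p = 4.31e-07). Without hindbrain 3 the Wnt value of Mmp24 was -0.44 with an adjusted p of 0.05, which no longer passed. It was not called without Wnt 1 and Wnt 8 (-0.48, adjusted p = 0.0524) or under the endothelial covariate (-0.60, adjusted p = 0.246). Over 9 granule neuron precursor markers the mean was 7.09 ± 0.20 in Wnt arrays, 8.44 ± 0.55 in Shh arrays and 6.77 ± 0.12 in hindbrain arrays (SD, n = 8), and their part in the Mmp24 result was not tested.

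Other secreted MMPs were higher in Wnt arrays or lower there. Mmp19, which cuts basement membrane proteins, ran from 8.57 to 9.94 in Wnt arrays (median 9.06), 7.01 to 8.39 in Shh arrays (median 7.52) and 6.09 to 6.86 in hindbrain arrays (median 6.72). The groups did not overlap, with Wnt arrays highest and hindbrain arrays lowest. Its difference was 2.64 ± 0.21 for Wnt minus hindbrain (adjusted p = 1.93e-10), 1.06 ± 0.21 for Shh minus hindbrain (adjusted p = 0.000314) and 1.58 ± 0.21 for Wnt minus Shh (adjusted p = 1.64e-06). Mmp23, an enzyme without the hemopexin domain of most MMPs, had a median of 8.25 in Wnt arrays (7.71 to 8.91), 6.80 in Shh arrays (6.42 to 7.31) and 6.44 in hindbrain arrays (6.28 to 6.61). Wnt arrays lay wholly above the others, and Shh and hindbrain arrays overlapped. Mmp23 was 3.5-fold higher in Wnt than in hindbrain arrays (adjusted p = 1.01e-09) and 2.71-fold higher than in Shh arrays (adjusted p = 9.28e-08), with 0.37 ± 0.16 for Shh minus hindbrain (adjusted p = 0.0717). That last difference was called when Wnt arrays were left out of the fit (adjusted p = 0.0112), with array quality weights (0.0236) and without Shh 6 (0.0398).

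Mmp28, or epilysin, had the opposite order, from 7.41 to 8.75 in Wnt arrays (median 8.05), 8.76 to 9.67 in Shh arrays (median 9.35) and 9.40 to 9.90 in hindbrain arrays (median 9.65). Every Wnt array lay below every Shh and hindbrain array. Its difference was -1.55 ± 0.18 for Wnt minus hindbrain (adjusted p = 8.23e-08), -0.37 ± 0.18 for Shh minus hindbrain (adjusted p = 0.11) and -1.18 ± 0.18 for Wnt minus Shh (adjusted p = 8.77e-06). The Shh minus hindbrain difference of Mmp28 was called when Wnt arrays were left out of the fit (adjusted p = 0.0326). Mmp21 was close to background in all groups, with means between 5.39 and 5.58, and passed no test.

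With the endothelial marker mean as a covariate, the Wnt minus hindbrain difference was 2.56 for Mmp2, 2.06 for Mmp14, 1.80 for Mmp19 and 1.75 for Mmp23, all still called, and 0.19 for Mmp16 (adjusted p = 0.793), which was not. No Wnt array reached the marker mean of any Shh or hindbrain array, so these adjusted values are extrapolated, whether called or not. The Wnt minus Shh difference became 0.54 for Mmp14 (adjusted p = 0.273) and 0.87 for Mmp19 (adjusted p = 0.057), and neither was called. Fibroblast marker means were higher in the same arrays, and their part in the rise of Mmp2, Mmp14, Mmp19 and Mmp23 was not tested.

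**Figure D2:**
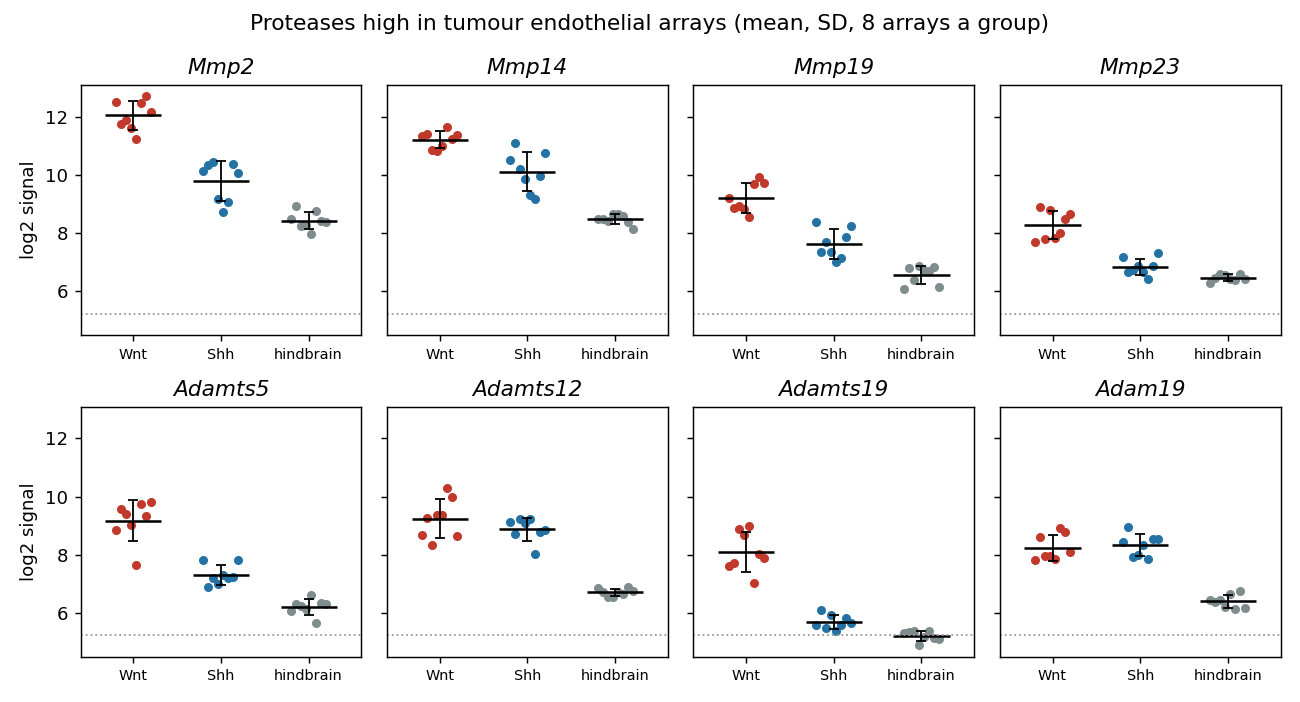
Log2 signal of 8 genes in each array (points, 8 a group) in Wnt, Shh and hindbrain arrays, with the mean and SD; the dotted line is the 95th percentile of ERCC controls (5.24). The Wnt arrays of Mmp2, Mmp19, Mmp23 and Adamts19 lie above all others, and both tumours lie above hindbrain for Adamts12 and Adam19.

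The clustered MMPs of chromosome 9 hold the stromelysins, the collagenases and macrophage elastase. Mmp3, or stromelysin 1, which cuts many matrix proteins and activates other MMPs, ran from 4.91 to 6.54 in Wnt arrays (median 5.43), 6.53 to 9.88 in Shh arrays (median 7.78) and 4.51 to 5.09 in hindbrain arrays (median 4.75). Every Shh array lay above every hindbrain array, and Wnt and Shh arrays met only through Wnt 2 (6.54) and Shh 5 (6.53). Mmp3 was 10.4-fold higher in Shh arrays than in hindbrain arrays (3.37 ± 0.33, adjusted p = 1.62e-08), from a hindbrain level within the range of the controls, so the size of that rise is uncertain. Its Wnt minus hindbrain difference was 0.72 ± 0.33 (adjusted p = 0.078), and its Wnt minus Shh difference -2.66 ± 0.33 (adjusted p = 4.55e-07). The Wnt value of Mmp3 was called without Shh 1 (adjusted p = 0.0346), without Shh 5 (0.0421) and when the Shh arrays were left out of the fit (0.00184).

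Mmp10, or stromelysin 2, had a median of 5.55 in Wnt arrays (5.32 to 5.82), 6.22 in Shh arrays (6.06 to 9.18) and 5.56 in hindbrain arrays (5.44 to 5.76). All Shh arrays lay above the others, but Shh 3 (8.40) and Shh 8 (9.18) stood well above the other 6, which reached 6.54 at most. The difference was 1.28 ± 0.33 for Shh minus hindbrain (adjusted p = 0.00336) and -1.30 ± 0.33 for Wnt minus Shh (adjusted p = 0.00289), while Wnt minus hindbrain was -0.02 ± 0.33 (adjusted p = 0.965). Mmp13, the main interstitial collagenase of mice, ran from 3.98 to 5.05 in Wnt arrays (median 4.55), 4.99 to 7.29 in Shh arrays (median 6.44) and 4.50 to 5.11 in hindbrain arrays (median 4.75). It was near or below background in Wnt and hindbrain arrays and above it in 6 of 8 Shh arrays, with Shh 5 lowest and Shh 2 highest. Mmp13 differed by 1.45 ± 0.23 for Shh minus hindbrain (adjusted p = 2.05e-05) and -1.62 ± 0.23 for Wnt minus Shh (adjusted p = 3.85e-06).

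Mmp8, or neutrophil collagenase, had a median of 5.08 in Wnt arrays (4.81 to 5.98), 5.93 in Shh arrays (5.21 to 7.75) and 5.13 in hindbrain arrays (4.92 to 5.51). The groups overlapped, and Shh 2 held the highest value. Its difference was 1.02 ± 0.29 for Shh minus hindbrain (adjusted p = 0.00742) and -1.04 ± 0.29 for Wnt minus Shh (adjusted p = 0.00666). Mmp12, the elastase of macrophages, ran from 5.03 to 5.47 in Wnt arrays (median 5.19), 5.39 to 8.83 in Shh arrays (median 7.14) and 5.58 to 7.11 in hindbrain arrays (median 6.38). Wnt arrays lay wholly below hindbrain arrays and near background, and Shh arrays spread across both. Its difference was -1.16 ± 0.36 for Wnt minus hindbrain (adjusted p = 0.0105), -1.86 ± 0.36 for Wnt minus Shh (adjusted p = 0.000212) and 0.70 ± 0.36 for Shh minus hindbrain (adjusted p = 0.134), which was called without Shh 5 (0.94, adjusted p = 0.0291). Under the endothelial covariate the Wnt minus Shh differences of Mmp8 (-1.03, adjusted p = 0.167) and Mmp10 (-1.13, adjusted p = 0.178) and the Wnt minus hindbrain difference of Mmp12 (-1.62, adjusted p = 0.107) were not called. Mmp27 was lower in Wnt than in Shh arrays (-0.58 ± 0.18, adjusted p = 0.0134), and Mmp7, or matrilysin, passed no test with the probe set used, at means of 5.47, 5.52 and 5.61 in Wnt, Shh and hindbrain arrays.

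Of the 10 clustered genes, Mmp3, Mmp8, Mmp10 and Mmp13 rose in Shh arrays (background 18.9%) and none rose in Wnt arrays (background 23.2%). Mmp1a, Mmp1b and Mmp20 stayed below the control level in every group. The AP-1 letters shown above stood before 3 of the 4 that rose, not Mmp8, and also before all 3 at background. Shh 5 was the lowest Shh array for Mmp3, Mmp9, Mmp12, Mmp13 and Mmp27, and it had the lowest Shh mean of microglia and macrophage markers (7.95). Shh 2 was the highest Shh array for Mmp8, Mmp12 and Mmp13, and it had the highest such mean (10.44) but the lowest Shh mean of neutrophil markers (5.25). The other genes peaked elsewhere, Mmp3 in Shh 1, Mmp27 in Shh 3, and Mmp9 and Mmp10 in Shh 8, whose microglia and macrophage mean was 8.63. Shh 3 and Shh 8, which stood apart for Mmp10, had the highest neutrophil means (6.61 and 6.19). Over 10 neutrophil markers the mean ran from 5.08 to 5.62 in Wnt arrays, 5.25 to 6.61 in Shh arrays and 5.48 to 5.91 in hindbrain arrays. S100a8, S100a9 and Cxcr2 of that list rose in Shh arrays and Csf3r fell, and means of Ly6g, Ngp, Camp and Retnlg were below the control level in every group. The part of leukocytes in the Shh values was not tested.

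**Figure D3:**
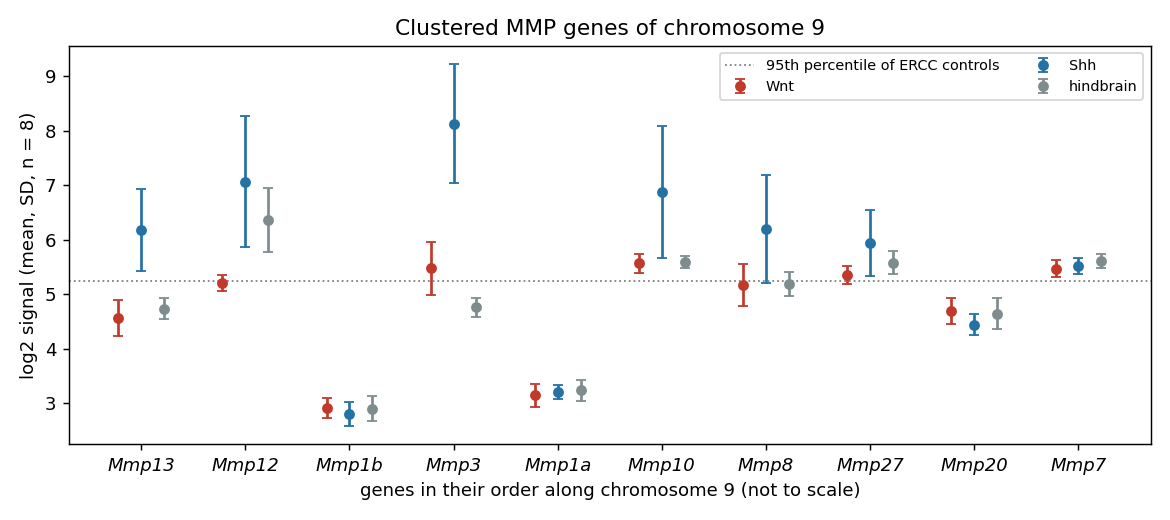
Log2 signal (mean and SD, n = 8) of the 10 neighbouring MMP genes of chromosome 9 in their genomic order, in Wnt, Shh and hindbrain arrays, with the 95th percentile of ERCC controls dotted; levels are to be compared between groups within a gene. Shh means stand above the others for Mmp13, Mmp3, Mmp10 and Mmp8, and the 3 groups lie together for Mmp1b, Mmp1a and Mmp20.

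**Figure D4:**
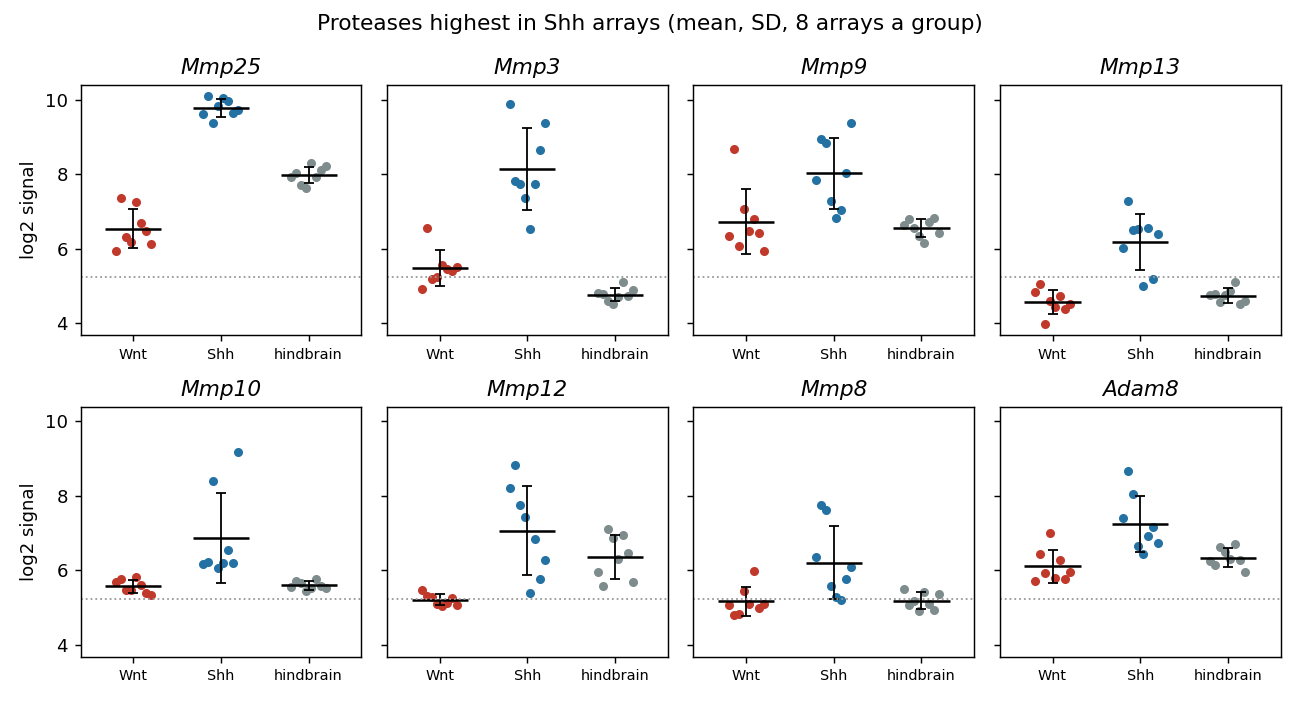
Log2 signal in each array (points, with mean and SD, 8 arrays a group) for 8 proteases with their highest mean in Shh arrays; the dotted line is the 95th percentile of ERCC controls. Mmp25 varies little among Shh arrays (9.37 to 10.09), while Mmp3, Mmp9, Mmp10 and Mmp12 spread widely, and 2 Shh arrays of Mmp10 stand apart.

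Mmp11, or stromelysin 3, lies outside that cluster. It rose in Wnt arrays (0.65 ± 0.13, adjusted p = 0.000205) and in Shh arrays (0.62 ± 0.13, adjusted p = 0.000523) against hindbrain. Its second probe set gave 0.14 in Wnt arrays (adjusted p = 0.219) and 0.0066 in Shh arrays (adjusted p = 0.964), so the probe sets disagree. The second probe set of Mmp7 fell in Wnt arrays (-0.30, adjusted p = 0.00544), from a level near the control median.

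Among ADAMTS enzymes that cut proteoglycans such as aggrecan and versican, 4 of 7 rose (57.1%) and 1 fell (14.3%) in Wnt arrays (background 23.2% and 22%), and 5 rose (71.4%) and 1 fell (14.3%) in Shh arrays (background 18.9% each). Adamts5, an aggrecanase, ran from 7.65 to 9.80 in Wnt arrays (median 9.38), 6.90 to 7.84 in Shh arrays (median 7.23) and 5.66 to 6.63 in hindbrain arrays (median 6.27). Both tumours lay above hindbrain, and Wnt 5 (7.65) was the one Wnt array within the range of Shh arrays. Its difference was 2.96 ± 0.23 for Wnt minus hindbrain, a 7.78-fold rise (adjusted p = 7.50e-11), 1.10 ± 0.23 for Shh minus hindbrain (adjusted p = 0.000381) and 1.86 ± 0.23 for Wnt minus Shh (adjusted p = 3.90e-07). Adamts4, the other main aggrecanase, had a median of 8.02 in Wnt arrays (7.83 to 9.13), 7.59 in Shh arrays (7.43 to 7.91) and 6.26 in hindbrain arrays (5.47 to 6.98). Tumour and hindbrain arrays did not overlap, with a rise of 3.83-fold in Wnt arrays (adjusted p = 1.23e-08) and 2.51-fold in Shh arrays (adjusted p = 9.73e-06). Adamts4 was also called higher in Wnt than in Shh arrays, but not with the endothelial covariate (0.83, adjusted p = 0.0911).

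Adamts9, which cuts versican, had a median of 10.26 in Wnt arrays (9.42 to 10.70), 10.06 in Shh arrays (9.69 to 10.41) and 8.28 in hindbrain arrays (7.87 to 8.97). Both tumours again lay wholly above hindbrain, by 1.73 ± 0.18 in Wnt arrays (adjusted p = 2.28e-08) and 1.69 ± 0.18 in Shh arrays (adjusted p = 9.57e-08), and Wnt minus Shh was 0.03 ± 0.18 (adjusted p = 0.91). Adamts8 ran from 6.51 to 8.90 in Wnt arrays (median 7.70), 7.33 to 8.59 in Shh arrays (median 7.90) and 6.01 to 6.83 in hindbrain arrays (median 6.36). Shh arrays lay above all hindbrain arrays and Wnt arrays overlapped them, with 1.38 ± 0.26 for Wnt minus hindbrain (adjusted p = 1.00e-04) and 1.44 ± 0.26 for Shh minus hindbrain (adjusted p = 0.000104). With the endothelial covariate the Wnt value of Adamts8 was 1.34 and no longer called (adjusted p = 0.0654). Its second probe set gave 0.77 in Wnt arrays (adjusted p = 0.00276) and 0.49 in Shh arrays (adjusted p = 0.061), so the rise in Shh arrays rests on 1 of its 2 probe sets.

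Adamts1, a versican-cutting enzyme that endothelium makes, went the other way, with a median of 11.53 in Wnt arrays (10.61 to 12.13), 11.07 in Shh arrays (10.80 to 11.45) and 11.87 in hindbrain arrays (11.57 to 12.61). Shh arrays lay wholly below hindbrain arrays and Wnt arrays overlapped both. Its difference was -0.54 ± 0.19 for Wnt minus hindbrain (adjusted p = 0.0227) and -0.92 ± 0.19 for Shh minus hindbrain (adjusted p = 0.000388). Smooth muscle markers fell in Shh arrays as well, and their part in the fall of Adamts1 was not tested. It is the neighbour of Adamts5 on chromosome 16, and the pair moved in opposite directions in both tumours. Adamts15 was higher in Wnt than in Shh arrays (0.52 ± 0.20, adjusted p = 0.0452), and Adamts20 was higher in Shh than in hindbrain arrays (0.46 ± 0.17, adjusted p = 0.0391).

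Among the other ADAMTSs, Adamts12 and its close relative Adamts7, which cut cartilage oligomeric matrix protein, were higher in both tumours. Adamts12 ran from 8.36 to 10.30 in Wnt arrays (median 9.31), 8.03 to 9.22 in Shh arrays (median 8.98) and 6.54 to 6.89 in hindbrain arrays (median 6.73). Tumour and hindbrain arrays did not overlap, and the tumours overlapped each other. Its difference was 2.54 ± 0.21 for Wnt minus hindbrain (adjusted p = 4.60e-10), 2.17 ± 0.21 for Shh minus hindbrain (adjusted p = 2.26e-08) and 0.37 ± 0.21 for Wnt minus Shh (adjusted p = 0.192). Adamts7 had a median of 7.81 in Wnt arrays (7.33 to 9.04), 7.44 in Shh arrays (6.53 to 7.59) and 6.21 in hindbrain arrays (5.81 to 6.41). It lay above hindbrain in every tumour array, by 3.26-fold in Wnt arrays (adjusted p = 3.06e-08) and 2.2-fold in Shh arrays (adjusted p = 2.69e-05), with Wnt 6 highest and Shh 6 lowest of the tumour arrays. Adamts7 was also called higher in Wnt than in Shh arrays, but not with the endothelial covariate (0.75, adjusted p = 0.104).

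Adamts19, whose substrates are little known, ran from 7.05 to 8.98 in Wnt arrays (median 7.95), 5.38 to 6.09 in Shh arrays (median 5.62) and 4.89 to 5.37 in hindbrain arrays (median 5.25). No other array reached the lowest Wnt array, and hindbrain arrays sat at the control level. The gene was 7.42-fold higher in Wnt than in hindbrain arrays (2.89 ± 0.20, adjusted p = 1.66e-11) and 5.32-fold higher than in Shh arrays (2.41 ± 0.20, adjusted p = 8.84e-10), with 0.48 ± 0.20 for Shh minus hindbrain (adjusted p = 0.0642). Shh arrays of Adamts19 nevertheless lay wholly above hindbrain arrays, by a narrow margin (5.381 against 5.374), and that difference was called when Wnt arrays were left out of the fit (adjusted p = 0.00111), after quantile normalization (0.0463), with array quality weights (0.0339), with the endothelial covariate (0.0404) and without Wnt 3 (0.0471), Wnt 5 (0.0415) or Wnt 6 (0.0295). Adamts17, its relative, had a median of 7.83 in Wnt arrays (7.01 to 9.18), 7.16 in Shh arrays (6.60 to 7.55) and 6.54 in hindbrain arrays (6.21 to 6.72). Wnt arrays lay above hindbrain arrays and overlapped Shh arrays, with 1.38 ± 0.25 for Wnt minus hindbrain (adjusted p = 6.60e-05) and 0.80 ± 0.25 for Wnt minus Shh (adjusted p = 0.0147). With the endothelial covariate the Wnt minus hindbrain value was 3.31 for Adamts19, still called, and 0.95 for Adamts17 (adjusted p = 0.185), not called. The Wnt minus Shh difference of Adamts17 was also lost with it (0.44, adjusted p = 0.529) and without Wnt 1 and Wnt 8 (0.61, adjusted p = 0.0638).

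Adamts16 had the largest fall among the ADAMTSs in both tumours and ran from 5.56 to 5.96 in Wnt arrays (median 5.68), 5.33 to 5.91 in Shh arrays (median 5.67) and 7.15 to 7.84 in hindbrain arrays (median 7.48). Every tumour array lay below every hindbrain array, and the tumours overlapped. It was 3.35-fold lower in Wnt arrays (-1.75 ± 0.10, adjusted p = 6.31e-13) and 3.5-fold lower in Shh arrays (-1.81 ± 0.10, adjusted p = 1.76e-12). Adamts10, which binds fibrillin, fell in Wnt arrays (-0.48 ± 0.10, adjusted p = 0.000347), and Adamts6, another fibrillin-binding enzyme, rose in Shh arrays (0.78 ± 0.18, adjusted p = 0.00108).

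Of the procollagen-processing enzymes, Adamts3, which also helps to activate the lymphatic growth factor Vegfc, rose in Wnt arrays (0.40 ± 0.12, adjusted p = 0.0104), and Adamts14 rose in Shh arrays (0.73 ± 0.21, adjusted p = 0.00761). They also differed between the tumours, Adamts3 by 0.38 ± 0.12 (adjusted p = 0.0186) and Adamts14 by -0.77 ± 0.21 (adjusted p = 0.0052) for Wnt minus Shh. The mean of Adamts3 was above the control level in Wnt arrays alone. Adamts13, which cuts von Willebrand factor in plasma, passed no test, with means of 5.81 ± 0.21 in Wnt arrays, 5.80 ± 0.11 in Shh arrays and 5.95 ± 0.17 in hindbrain arrays (SD, n = 8). Its substrate, encoded by Vwf, fell in Wnt arrays (-1.06 ± 0.21, adjusted p = 0.000139) and rose in Shh arrays (0.65 ± 0.21, adjusted p = 0.0158). Adamts18 passed no test either.

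ADAMs that act as sheddases numbered 9, of which 3 rose (33.3%) and 3 fell (33.3%) in Wnt arrays (background 23.2% and 22%) and 4 rose (44.4%) and 1 fell (11.1%) in Shh arrays (background 18.9% each). Adam10, which releases Notch fragments and cadherins, ran from 10.48 to 10.91 in Wnt arrays (median 10.75), 10.81 to 11.24 in Shh arrays (median 11.04) and 10.98 to 11.24 in hindbrain arrays (median 11.13). Wnt arrays lay wholly below hindbrain arrays, and Shh arrays overlapped both. Its difference was -0.39 ± 0.070 for Wnt minus hindbrain (adjusted p = 4.30e-05) and -0.32 ± 0.070 for Wnt minus Shh (adjusted p = 0.000711). With the endothelial covariate these were -0.27 (adjusted p = 0.166) and -0.21 (adjusted p = 0.217), and not called. Adam17, which releases tumour necrosis factor, had a median of 9.05 in Wnt arrays (8.78 to 9.13), 9.49 in Shh arrays (9.27 to 9.60) and 9.59 in hindbrain arrays (9.41 to 9.70). Every Wnt array lay below every Shh and hindbrain array, by -0.62 ± 0.070 for Wnt minus hindbrain (adjusted p = 6.52e-08) and -0.49 ± 0.070 for Wnt minus Shh (adjusted p = 3.77e-06). Neither gene was called in Shh arrays against hindbrain, with -0.07 ± 0.070 for Adam10 (adjusted p = 0.437) and -0.12 ± 0.070 for Adam17 (adjusted p = 0.172).

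Adam15, an integrin-binding protease of endothelium, ran from 10.18 to 10.91 in Wnt arrays (median 10.73), 10.56 to 11.26 in Shh arrays (median 10.93) and 11.65 to 11.86 in hindbrain arrays (median 11.76). Every tumour array lay below every hindbrain array, by 2.19-fold in Wnt arrays (-1.13 ± 0.11, adjusted p = 1.01e-08) and 1.79-fold in Shh arrays (-0.84 ± 0.11, adjusted p = 2.44e-06). Its second probe set also fell, by 0.28 in each tumour on the log2 scale. With the endothelial covariate the fall in Wnt arrays was -0.54 and still called (adjusted p = 0.021).

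Adam12 and Adam19, known as meltrins and seen in muscle, bone and developing heart, were higher in both tumours. Adam19 had a median of 8.03 in Wnt arrays (7.81 to 8.92), 8.40 in Shh arrays (7.86 to 8.97) and 6.41 in hindbrain arrays (6.16 to 6.76). Tumour and hindbrain arrays did not overlap, with 1.84 ± 0.17 for Wnt minus hindbrain (adjusted p = 2.66e-09) and 1.92 ± 0.17 for Shh minus hindbrain (adjusted p = 4.61e-09). Its second probe set rose by 0.59 and 0.70. Adam12 ran from 6.95 to 8.06 in Wnt arrays (median 7.36), 6.99 to 7.92 in Shh arrays (median 7.69) and 6.10 to 6.35 in hindbrain arrays (median 6.22). It showed the same separation, with 1.22 ± 0.14 (adjusted p = 9.89e-08) in Wnt arrays and 1.36 ± 0.14 (adjusted p = 5.38e-08) in Shh arrays against hindbrain. For Wnt minus Shh the difference was -0.08 ± 0.17 for Adam19 (adjusted p = 0.759) and -0.14 ± 0.14 for Adam12 (adjusted p = 0.482).

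Adam9, a widely made sheddase, rose by 0.60 ± 0.098 in Wnt arrays (adjusted p = 1.52e-05) and 0.62 ± 0.098 in Shh arrays (adjusted p = 1.87e-05), without overlap with hindbrain. Adam8, a sheddase of leukocytes, had a median of 5.95 in Wnt arrays (5.70 to 6.99), 7.03 in Shh arrays (6.44 to 8.66) and 6.29 in hindbrain arrays (5.94 to 6.71). The groups overlapped, and Shh 2 was highest and Shh 5 lowest among Shh arrays, as for Mmp12 and Mmp13. It was 1.87-fold higher in Shh than in hindbrain arrays (adjusted p = 0.00539) and 2.2-fold lower in Wnt than in Shh arrays (adjusted p = 0.000689). The Wnt minus Shh difference of Adam8 was not called under the endothelial covariate (-0.98, adjusted p = 0.114). Adam33 differed for Wnt minus Shh alone (-0.37 ± 0.11, adjusted p = 0.0129), and Adam28 was below the control level.

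Adam11, Adam22 and Adam23 lack a working catalytic site and are known as neuronal receptors. Adam23 ran from 4.77 to 5.83 in Wnt arrays (median 5.04), 6.05 to 7.49 in Shh arrays (median 7.04) and 5.35 to 6.28 in hindbrain arrays (median 5.78). Every Wnt array lay below every Shh array, and hindbrain overlapped both. Its difference was -0.61 ± 0.18 for Wnt minus hindbrain (adjusted p = 0.00742), 1.08 ± 0.18 for Shh minus hindbrain (adjusted p = 4.22e-05) and -1.70 ± 0.18 for Wnt minus Shh (adjusted p = 5.94e-08). With the endothelial covariate the first was -0.30 and not called (adjusted p = 0.638). The Wnt mean of Adam23 was below the control level. Adam22 rose in Shh arrays (0.64 ± 0.15, adjusted p = 0.00161), and Adam11 passed no test. Over 8 neuron markers the mean was 6.43 ± 0.32 in Wnt arrays, 6.93 ± 0.38 in Shh arrays and 6.87 ± 0.54 in hindbrain arrays (SD, n = 8), and their part in these values was not tested.

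The other 21 ADAMs, most of them known from the male reproductive tract, gave 2 rises (9.52%) and 3 falls (14.3%) in Wnt arrays (background 23.2% and 22%) and 3 rises (14.3%) and 2 falls (9.52%) in Shh arrays (background 18.9% each), shares below those of all genes. Only Adam1a, Adam3 and Adam4 of these had a mean above the control level in any group. Adam3 was lower in Wnt arrays (-0.72 ± 0.080, adjusted p = 3.96e-08) and higher in Shh arrays (0.23 ± 0.080, adjusted p = 0.028) than in hindbrain arrays, at means of 4.95 ± 0.22 in Wnt arrays, 5.90 ± 0.13 in Shh arrays and 5.68 ± 0.08 in hindbrain arrays (SD, n = 8). Adam4 rose in Wnt arrays (0.40 ± 0.16, adjusted p = 0.045) and in Shh arrays (0.85 ± 0.16, adjusted p = 0.000146). Its mean was above the control level in Shh arrays alone. Adam1a fell in Wnt arrays (-0.44 ± 0.12, adjusted p = 0.00297). Calls among the rest, as for Adam5, Adam18, Adam30 and Adam32, concern signals within the range of the controls.

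All 4 TIMPs were called in Wnt arrays against hindbrain, 3 higher and 1 lower (background 23.2% and 22%), and 3 in Shh arrays, 2 higher and 1 lower (background 18.9% each). Timp1, which blocks most secreted MMPs, ran from 8.29 to 9.45 in Wnt arrays (median 9.23), 8.81 to 10.71 in Shh arrays (median 9.19) and 5.62 to 6.39 in hindbrain arrays (median 5.98). Every tumour array lay more than 1 log2 unit above every hindbrain array, and the tumours overlapped. Timp1 was 8.36-fold higher in Wnt arrays (3.06 ± 0.22, adjusted p = 3.14e-11) and 11.2-fold higher in Shh arrays (3.48 ± 0.22, adjusted p = 1.49e-11) than in hindbrain arrays, and Wnt minus Shh was -0.42 ± 0.22 (adjusted p = 0.153). Timp2, which both blocks MMPs and takes part with Mmp14 in activating the precursor of Mmp2, had a median of 11.16 in Wnt arrays (10.64 to 11.39), 10.85 in Shh arrays (9.52 to 11.30) and 10.59 in hindbrain arrays (10.32 to 10.93). The groups overlapped, and its rise in Wnt arrays was small (0.51 ± 0.19, adjusted p = 0.0291). That call was lost without Wnt 6 (adjusted p = 0.0546), Wnt 7 (0.0541) or hindbrain 8 (0.0557) or without both Wnt 1 and Wnt 8 (0.0653), and with the endothelial covariate the difference was 0.03 (adjusted p = 0.967). For Timp2, Shh minus hindbrain and Wnt minus Shh were not called. The latter was called with array quality weights (adjusted p = 0.03) and without Wnt 5 (0.0476), Shh 2 (0.0356) or Shh 3 (0.0363).

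Timp3, which binds to the matrix and also blocks Adam17 and the aggrecanases, ran from 11.74 to 12.60 in Wnt arrays (median 12.10), 10.29 to 11.19 in Shh arrays (median 10.58) and 11.49 to 11.74 in hindbrain arrays (median 11.59). The groups did not overlap, with Wnt arrays at the top and Shh arrays at the bottom. Its difference was 0.49 ± 0.12 for Wnt minus hindbrain (adjusted p = 0.00107), -0.98 ± 0.12 for Shh minus hindbrain (adjusted p = 3.05e-07) and 1.47 ± 0.12 for Wnt minus Shh, a 2.77-fold difference (adjusted p = 2.66e-10). With the endothelial covariate the Wnt minus hindbrain difference was 1.10 (adjusted p = 2.36e-05). Smooth muscle marker means were lowest in Shh arrays too (7.47), but were lower in Wnt arrays (8.46) than in hindbrain arrays (8.93), unlike Timp3. Their part in the Timp3 result was not tested.

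Timp4, an inhibitor of narrower distribution, had a median of 5.90 in Wnt arrays (5.29 to 7.37), 8.63 in Shh arrays (7.50 to 10.32) and 7.27 in hindbrain arrays (5.92 to 8.19). Every Wnt array lay below every Shh array, and hindbrain arrays overlapped both. Its difference was 1.68 ± 0.39 for Shh minus hindbrain (adjusted p = 0.00126) and -2.69 ± 0.39 for Wnt minus Shh, 6.45-fold lower in Wnt arrays (adjusted p = 4.66e-06). The fall in Wnt arrays against hindbrain was -1.01 ± 0.39 (adjusted p = 0.0356). That fall was not called without any 1 of Wnt 1, 2, 3, 7 or 8 or hindbrain 1, 3, 4, 5 or 8 (adjusted p between 0.0504 and 0.0834), or with the endothelial covariate (-0.24, adjusted p = 0.877), without both Wnt 1 and Wnt 8 (adjusted p = 0.106) or after quantile normalization (0.0515). Over 8 astrocyte markers, of which 5 rose and 1 fell in Shh arrays, the mean was 7.65 ± 0.21 in Wnt arrays, 8.29 ± 0.38 in Shh arrays and 7.64 ± 0.33 in hindbrain arrays (SD, n = 8). Among hindbrain arrays Timp4 and that mean were both highest in hindbrain 1 (8.19 and 7.98) and both low in hindbrain 6 (5.98 and 7.21) and hindbrain 7 (5.92 and 7.24). Among Shh arrays, Shh 3 had the lowest astrocyte mean (7.47) with Timp4 at 9.49. The part of astrocytes in the Timp4 result was not tested.

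**Figure D5:**
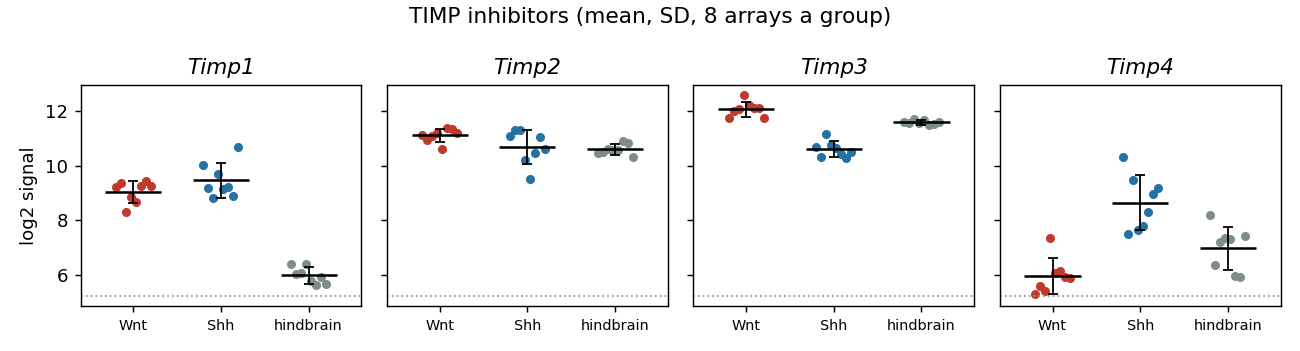
Log2 signal of the 4 TIMP genes in each array (points, with mean and SD, 8 arrays a group) in Wnt, Shh and hindbrain arrays; the dotted line is the 95th percentile of ERCC controls. Timp1 is high in both tumours (8.29 or more) and low in hindbrain (6.39 or less), and the groups of Timp3 stand in the order Wnt, hindbrain, Shh from the top.

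Genes that work with these enzymes were followed in a list of 57, of which 55 were measured. In Wnt arrays 21 rose (38.2%, background 23.2%) and 18 fell (32.7%, background 22%) against hindbrain. In Shh arrays 20 rose (36.4%, background 18.9%) and 16 fell (29.1%, background 18.9%). Between the tumours 18 were higher (32.7%, background 18%) and 18 lower (32.7%, background 17.8%) in Wnt arrays. Plau, the urokinase that makes plasmin, which in turn activates MMP precursors, had a median of 7.92 in Wnt arrays (7.10 to 8.65), 8.41 in Shh arrays (7.71 to 9.33) and 10.01 in hindbrain arrays (8.72 to 11.36). It fell by 2.18 in Wnt arrays (adjusted p = 2.71e-06) and by 1.64 in Shh arrays (adjusted p = 0.00021) on the log2 scale. Its receptor Plaur fell in Wnt arrays (-0.80 ± 0.29, adjusted p = 0.0268). Plat rose in Wnt arrays (0.46 ± 0.099, adjusted p = 0.000401), and Anxa2 rose in Wnt arrays (0.30 ± 0.089, adjusted p = 0.00684) and Shh arrays (0.57 ± 0.089, adjusted p = 1.57e-05). Of the 8 plasminogen system genes measured, 3 rose and 3 fell in Wnt arrays (background 23.2% and 22%), and 1 rose and 2 fell in Shh arrays (background 18.9% each). S100a10, a plasminogen receptor subunit, rose in Wnt arrays (1.77 ± 0.11, adjusted p = 9.80e-13), with 0.06 ± 0.11 in Shh arrays (adjusted p = 0.717).

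Among other proteases, Bmp1, the procollagen C-proteinase, had a median of 11.09 in Wnt arrays (10.83 to 11.34), 10.80 in Shh arrays (10.41 to 11.39) and 8.77 in hindbrain arrays (8.39 to 8.94). It was higher in every tumour array than in any hindbrain array, by 2.36 ± 0.11 in Wnt arrays (adjusted p = 1.11e-14) and 2.07 ± 0.11 in Shh arrays (adjusted p = 8.19e-13). Its enhancer Pcolce rose with 1.64 ± 0.13 (adjusted p = 9.21e-11) in Wnt arrays and 0.83 ± 0.13 (adjusted p = 1.15e-05) in Shh arrays. Mme, or neprilysin, rose in Wnt arrays (3.47 ± 0.31, adjusted p = 1.11e-09) and Shh arrays (2.20 ± 0.31, adjusted p = 3.73e-06), and Hpse, or heparanase, in Wnt arrays (1.68 ± 0.40, adjusted p = 0.00124) and Shh arrays (2.34 ± 0.40, adjusted p = 6.01e-05). The serine proteases Htra1 and Htra3 differed between the tumours in opposite directions, with 2.38 ± 0.15 for Htra1 (adjusted p = 5.69e-12) and -1.89 ± 0.14 for Htra3 (adjusted p = 9.01e-11) for Wnt minus Shh.

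Inhibitors outside the TIMP family moved apart too. A2m, the plasma inhibitor that traps proteases of all classes, had a median of 13.42 in Wnt arrays (13.27 to 13.64), 7.21 in Shh arrays (6.37 to 10.91) and 7.30 in hindbrain arrays (6.49 to 8.13). All Wnt arrays lay above the others, by 6.11 ± 0.44 for Wnt minus hindbrain (adjusted p = 3.35e-11) and 5.73 ± 0.44 for Wnt minus Shh (adjusted p = 2.24e-10). Reck, a membrane-anchored MMP inhibitor of vessels, fell in Wnt arrays (-0.60 ± 0.18, adjusted p = 0.00777) and in Shh arrays (-1.46 ± 0.18, adjusted p = 5.89e-07). Spock2, a proteoglycan, fell in Wnt arrays (-2.13 ± 0.21, adjusted p = 7.18e-09), and Spock1, its relative, was higher in Wnt than in Shh arrays (2.10 ± 0.22, adjusted p = 4.69e-08). Rhbdf2, a partner that brings Adam17 to the cell surface, fell in Wnt arrays (-1.88 ± 0.12, adjusted p = 4.12e-12) and in Shh arrays (-0.54 ± 0.12, adjusted p = 0.00102), while Rhbdf1 rose in both (0.91 ± 0.12 and 0.38 ± 0.12). Of the proteoglycans that ADAMTSs cut, Vcan, or versican, rose by 4.24 ± 0.36 in Wnt arrays (adjusted p = 6.62e-10) and 2.35 ± 0.36 in Shh arrays (adjusted p = 1.50e-05), Ncan, or neurocan, by 1.71 ± 0.29 (adjusted p = 2.62e-05) and 2.42 ± 0.29 (adjusted p = 4.63e-07), and Bcan, or brevican, by 1.07 ± 0.31 (adjusted p = 0.00551) and 1.52 ± 0.31 (adjusted p = 0.000336).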

How the data were processed

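RNA of cells sorted from 24 tissue samples was hybridised to Affymetrix mouse arrays, 8 arrays in each of 3 groups, which were assigned from the titles. The deposited table held 1 log2 value per probe set and array, as the range of its values shows. How the authors summarised, corrected and normalized the signals is not given in the sources used here, and the submitters' processing notes name Partek 6.6 without its role. Of 41345 probe sets, 23521 had 1 gene symbol in the platform annotation, and the probe set of highest mean over the arrays stood for each of 22180 genes. The log2 values were used as deposited. One model with a term for the group was fitted across all genes and arrays (limma 3.58.1 under R 4.3.3, functions lmFit and eBayes with no trend and with 21 residual degrees of freedom), and genes were called at a two-sided Benjamini-Hochberg adjusted p under 0.05 over all genes. Values after ± are standard errors of log2 differences unless SD is named.

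The members, gene lists, marker lists and tests were chosen with earlier results of these data known. Values are given in full for members called with an absolute log2 difference of at least 1 in any comparison, and for Timp1, Timp2, Timp3, Timp4, Mmp2, Mmp9, Mmp14, Adam10 and Adam17, 34 in all. The other members are given by counts, ranges or single values. Of the partner genes, those with a called log2 difference of at least 2 are named, with others that share a role with them, chosen after their values were seen. All 77 member symbols matched the RefSeq gene table, and 47 had a promoter window. The titles name no pairing of replicate numbers across groups, and none was used in the main fit. Deviations of same-numbered arrays correlated between -0.146 and 0.282. Arrays of different numbers were not compared in this way, so these values cannot settle whether same-numbered arrays are paired. Alternatives were another normalization, a filter on dim genes (mean under 5), other probe set rules and variance models, fits to the compared groups alone, a replicate block, leaving out each array, and a covariate for the endothelial marker mean.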

Additional observations from a re-analysis of the deposited data

Results flagged for a closer look

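In groups of 8 arrays, a single array stood apart from the rest of its group for several of the genes given in full. Wnt 2 was at 8.684 for Mmp9, with the next Wnt array at 7.066, and at 6.545 for Mmp3, with the next at 5.565. Wnt 6 was at 9.045 for Adamts7 (next 8.048), Wnt 5 at 7.65 for Adamts5 (next 8.851) and Wnt 4 at 7.371 for Timp4 (next 6.163). Shh 6 was lowest for Adamts12, at 8.029 (next 8.711), and for Adamts7, at 6.535 (next 7.212). These were 7 of 102 groups examined, where chance alone marks about 1 in 20. The difference of Adamts5 and Adamts7 from hindbrain stayed called in both tumours without any 1 array.

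For 6 genes the tumours differed from hindbrain in opposite directions, each past the threshold, and the direct test between the tumours also passed. The matching count over all 22180 genes is not given here, so the 6 are described without a background. Wnt minus Shh was -3.246 for Mmp25, -2.689 for Timp4, -1.698 for Adam23, -1.425 for Mmp24 and -0.9486 for Adam3, which were lower in Wnt and higher in Shh arrays than in hindbrain arrays. It was 1.472 for Timp3, which was higher in Wnt and lower in Shh arrays. With the endothelial marker mean as a covariate, the Wnt minus hindbrain difference was not called for Timp4 (-0.24, adjusted p = 0.877), Adam23 (-0.30, adjusted p = 0.638) or Mmp24 (-0.60, adjusted p = 0.246), and that of Timp4 was also lost without any 1 of 10 single arrays.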

How the results depend on the processing

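With the endothelial marker mean as a covariate, 6 of the 77 genes fell in Wnt arrays against hindbrain, in place of 16, and between the tumours 6 were higher and 12 lower in Wnt arrays, in place of 12 and 23. Over all genes the falling share in Wnt arrays was then 8.74% in place of 22%, and between the tumours 8.75% and 8.12% in place of 18% and 17.8%. The marker mean ran from 9.99 to 11.28 in Wnt arrays, 11.40 to 11.87 in Shh arrays and 11.58 to 11.93 in hindbrain arrays. Wnt arrays thus shared no part of its range with the others, and Wnt comparisons under the covariate are extrapolated. A call that stayed, or a difference that grew, does not show independence from the marker level. The cause of the changed counts was not tested. Standard errors of Wnt comparisons grew under the covariate, as for Adam10 Wnt minus hindbrain (-0.39 ± 0.070 without it, -0.27 ± 0.13 with it). The Adamts8 value for Wnt minus hindbrain was 1.38 without it and 1.34 ± 0.50 with it, and lost its call. A lost call thus does not by itself mean a smaller difference. The counts of rising genes were then 16 in Wnt arrays and 32 in Shh arrays, and 7 fell in Shh arrays. Leaving out each array in turn gave 22 to 23 rising and 13 to 17 falling genes in Wnt arrays, 30 to 34 rising and 6 to 8 falling in Shh arrays, and 11 to 14 higher and 21 to 24 lower in Wnt than in Shh arrays. A replicate block gave 22 and 16, 32 and 7, and 12 and 23, although the titles name no pairing by replicate number. Without Wnt 1 and Wnt 8, the arrays of lowest endothelial marker mean, an alternative added with the data known, the counts were 23 and 13, 32 and 7, and 14 and 21. Over the 34 genes given in full, 981 values under the alternatives other than leaving out 1 array kept their side of the threshold. Of the others, 15 passed newly and 24 no longer passed. When 1 array was left out, these counts were 2414, 20 and 14. No called value changed sign under any alternative. Some uncalled values did, as for Adam15 Wnt minus Shh (-0.29, and 0.22 with the endothelial covariate). Signals near the ERCC controls limit what can be said of Mmp3, Mmp8, Mmp10, Mmp12, Mmp13 and Adamts19 in the groups where they are low. The same holds for Adam3, Adam4, Adam23 and Adamts3.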
